A study of Setaria viridis with 32 samples.

Results

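The clade II SWEET genes of *Setaria viridis* followed here are *SvSWEET4a* (Sevir.1G134500), *SvSWEET4c* (Sevir.1G134200) and *SvSWEET5* (Sevir.3G127400), 3 of the 38334 loci counted in developing seed heads. They were chosen by locus identifier from the 17 SWEETs that the study lists, as members of clade II. Their transcript levels were not part of this rule, but earlier results of these data were known when it was made. *SvSWEET6*, which also carries a number of clade II, was not among the genes chosen and is described further on. Whole seed heads of 2 ecotypes, ME034V and A.10, were sampled when the head was 50% emerged (50% SH), at anthesis and at 8 and 16 days after anthesis (DAA). Plants of both ecotypes were untreated and grown in a chamber. Each of the 8 groups had 4 libraries of poly(A) RNA, each from a pool of 4 plants, which makes 32 libraries in all. A whole seed head holds maternal and filial tissues together, so fewer cells of one type and less RNA per cell cannot be told apart in these values. The files pair loci with no gene description by which tissue markers could be checked.

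SWEETs are membrane transporters that let sugars move down their concentration gradient, out of or into a cell. Members of clade II are known mainly as hexose transporters, whereas clade III is known for sucrose. The authors measured transport of both glucose and sucrose by SvSWEET4a in frog oocytes. In grasses the seed is cut off from the mother plant by a break in cell-to-cell connections, so sugars must cross membranes to reach the endosperm and embryo. In maize, ZmSWEET4c carries hexoses across the basal endosperm transfer layer, where cell wall invertases split sucrose into glucose and fructose, and its orthologue in rice also acts in grain filling. The Arabidopsis gene *AtSWEET5* is known to be expressed in pollen.

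In the v2.1 annotation, *SvSWEET4c* occupies positions 13250661 to 13255321 of chromosome 1 and *SvSWEET4a* positions 13453004 to 13455752, both on the minus strand and 197682 bp apart. *SvSWEET5* occupies positions 8464607 to 8466183 of chromosome 3, on the plus strand. None of the 3 loci overlaps another locus. The annotation places 2 loci between *SvSWEET4c* and *SvSWEET4a*, and neither was more than barely detected. Sevir.1G134300 had 7 counts over all 32 libraries and Sevir.1G134400 had 14, against 45600 for *SvSWEET4c* and 16239 for *SvSWEET4a*. The coding sequences of the *SvSWEET4* copies are highly similar, and the authors kept only reads with a single place in the genome. The authors also name a copy *SvSWEET4b*, which had no locus in the sources used here and was not analysed. Reads that fit more than 1 copy equally were thus counted for none. The levels of *SvSWEET4a* and *SvSWEET4c* are uncertain to that extent.

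Values that follow 1 gene are CPM, counts scaled to the size of the library with the trimmed mean of M-values (TMM) over all 32 libraries. Values that set genes beside each other are log2 FPKM, which divide by the length of the locus. The libraries held 4557079 to 21175874 counts (median 8178992). All 3 genes passed the filter on low counts in every fit. A gene is said to rise, fall or differ where the adjusted p of edgeR's quasi-likelihood test was under 0.05 (Benjamini-Hochberg over all loci tested). ME034V 16 DAA replicate 3 stood apart from the other libraries of its group. The 22 starch synthesis loci listed by the study (ADP-glucose pyrophosphorylases, starch synthases and starch branching enzymes among them) summed to 4597 CPM there and to between 8675 and 9309 CPM in the other ME034V 16 DAA libraries. Where it moves a result at 16 DAA, the value without it is given too. The counts of ME034V 50% SH replicate 1 differed from those of its other replicates with a chi-square per degree of freedom of 18.16 to 19.73, against 3.08 to 4.24 among the others. For A.10 8 DAA replicate 1 this was 9.33 to 24.92, against 3.03 to 11.05 among the others, and for ME034V 16 DAA replicate 3 it was 35.72 to 45.21. The measure grows with depth, and was 28.06 to 47.65 for ME034V anthesis replicate 4, the library with the most counts.

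*SvSWEET4c* and *SvSWEET5* rose into anthesis in both ecotypes, *SvSWEET4c* rose again to 8 DAA, and *SvSWEET5* fell between 8 and 16 DAA. From 50% SH to anthesis 2 of the 3 genes rose in ME034V, where 18.5% of the 24144 loci tested changed and 10.4% rose. In A.10 2 of 3 rose, where 34.5% of 23984 loci changed and 16.7% rose. From anthesis to 8 DAA 1 gene rose in ME034V (46.6% of loci changed and 22.2% rose). At that step in A.10 1 rose and 2 fell (62.6% of loci changed, 32.2% up and 30.4% down). The fall of *SvSWEET5* among these was at the threshold (edgeR adjusted p = 0.0499). It was lost with DESeq2 and in 14 of 16 fits without 1 library. From 8 to 16 DAA 1 gene fell in each ecotype, *SvSWEET5* both times, when 6.71% of loci changed and 2.61% fell in ME034V, and 25.7% changed and 12.5% fell in A.10. Both of these calls were lost in some fits without 1 library. The share of all loci that changed was high at most steps, so that a change at a step does not by itself set these genes apart.

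**Figure D1:**
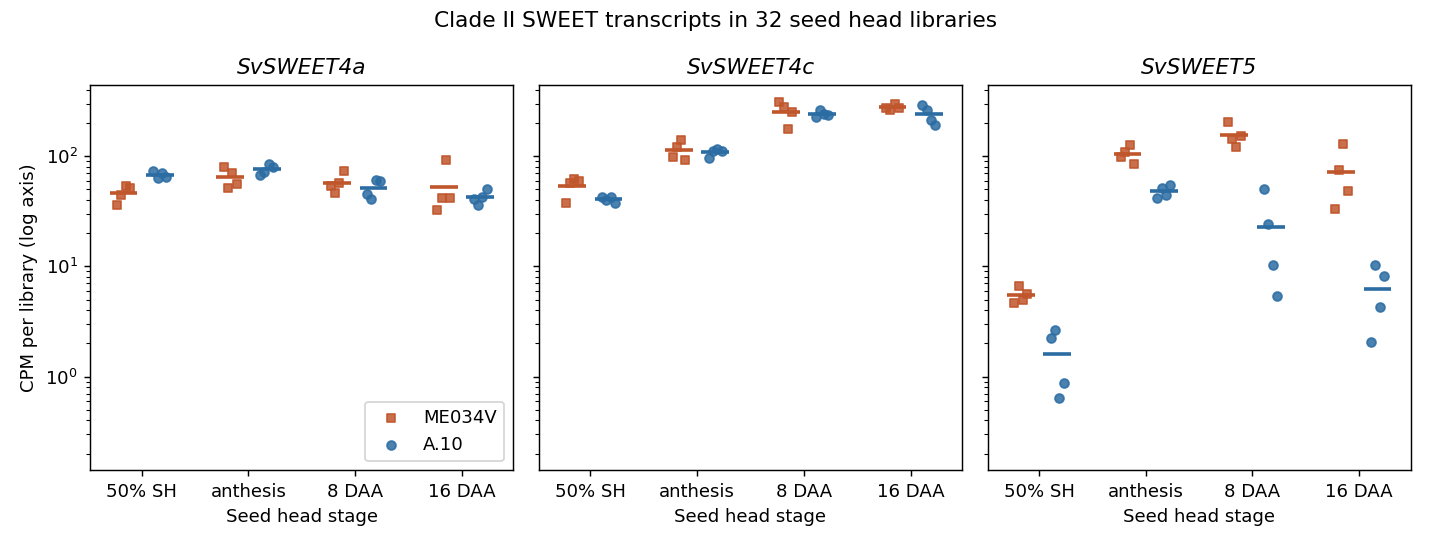
Transcript level of the 3 genes in every library (CPM on a log axis) by seed head stage. Squares are ME034V libraries, circles are A.10 libraries and bars are means of 4 libraries. *SvSWEET4a* stays between 32.6 and 91.7 CPM in all libraries, *SvSWEET4c* climbs to 8 DAA in both ecotypes, and every ME034V library of *SvSWEET5* lies above every A.10 library of the same stage. The share of all loci apart in this way was not counted.

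*SvSWEET4c*, the copy that shares its name with the maize hexose transporter of the endosperm transfer layer, rose into anthesis and again into 8 DAA. At 50% SH it had 37.3, 57.0, 61.8 and 59.9 CPM in the ME034V libraries and 42.8, 40.4, 42.4 and 37.45 CPM in those of A.10. At anthesis it had 97.6, 119.9, 141 and 93.0 CPM in ME034V and 96.7, 112, 116 and 112 CPM in A.10. All 8 anthesis libraries lay above all 8 libraries of 50% SH. At 8 DAA the values were 307, 278, 177 and 251 CPM in ME034V and 229, 260.1, 239 and 238 CPM in A.10. At 16 DAA they were 276, 264, 298 and 273 CPM in ME034V and 291, 262, 215 and 191 CPM in A.10. The late libraries overlapped each other and all lay above those of anthesis. The share of all loci whose stages were apart in these ways was not counted.

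The rise to anthesis was 1.07 on the log2 scale in ME034V (SE 0.18, edgeR adjusted p = 0.00042) and 1.42 in A.10 (SE 0.11, edgeR adjusted p = 8.1e-08). From anthesis to 8 DAA *SvSWEET4c* rose by 1.17 in ME034V (SE 0.18, edgeR adjusted p = 4.3e-05) and by 1.15 in A.10 (SE 0.11, edgeR adjusted p = 5.1e-08). The last step was 0.14 in ME034V (95% interval -0.23 to 0.51, or 0.10 without ME034V 16 DAA replicate 3) and -0.01 in A.10 (95% interval -0.22 to 0.21), and neither passed the test. Between the ecotypes *SvSWEET4c* differed at no stage by the test. The log2 fold change of ME034V over A.10 was 0.40 at 50% SH (95% interval 0.08 to 0.72, edgeR adjusted p = 0.087), 0.04 at anthesis, 0.07 at 8 DAA and 0.21 at 16 DAA (95% interval -0.09 to 0.52). At 50% SH the difference depends on ME034V replicate 1, whose 37.3 CPM lay below the other ME034V libraries, and without it the difference was 0.55 (edgeR adjusted p = 0.010).

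*SvSWEET4a*, a homologous copy, varied far less over development. In ME034V it had 36.2, 44.5, 53.1 and 51.3 CPM at 50% SH, 79.0, 51.8, 69.9 and 56.4 CPM at anthesis, 53.4, 46.4, 57.1 and 73.5 CPM at 8 DAA, and 32.6, 42.0, 91.7 and 41.7 CPM at 16 DAA. In A.10 it had 72.8, 63.2, 70.3 and 64.3 CPM at 50% SH, 67.4, 71.8, 84.2 and 80.4 CPM at anthesis, 45.7, 40.5, 60.9 and 59.9 CPM at 8 DAA, and 41.2, 36.0, 42.6 and 49.9 CPM at 16 DAA. When the 8 groups were ordered by mean, from 76.0 CPM in A.10 at anthesis to 42.4 CPM in A.10 at 16 DAA, every group overlapped the next one in the order. The highest library of all was ME034V 16 DAA replicate 3, the library with the low starch synthesis sum.

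Of 6 stage steps of *SvSWEET4a*, 1 passed the test, the fall by 0.55 in log2 units from anthesis to 8 DAA in A.10 (SE 0.12, edgeR adjusted p = 0.0010). The same step in ME034V was -0.15 (95% interval -0.69 to 0.38, edgeR adjusted p = 0.66). The difference between those steps was tested itself and was 0.40 (95% interval -0.20 to 1.01, edgeR adjusted p = 0.59), so that the fall is not shown to differ between the ecotypes. The step to anthesis was 0.47 in ME034V (SE 0.25, edgeR adjusted p = 0.22) and 0.17 in A.10 (SE 0.12, edgeR adjusted p = 0.32). Without ME034V 16 DAA replicate 3, which entered this fit through the shared estimate of spread, the ME034V step passed (0.47, edgeR adjusted p = 0.039). From 8 to 16 DAA the step was -0.28 in A.10 (95% interval -0.54 to -0.01, edgeR adjusted p = 0.12). In ME034V it was -0.15 (95% interval -0.69 to 0.39, edgeR adjusted p = 0.81). Without ME034V 16 DAA replicate 3 the ME034V step was -0.57 (edgeR adjusted p = 0.066), which missed the threshold. That library also set the sign of the difference between ecotypes at 16 DAA, which was 0.29 with it (edgeR adjusted p = 0.34) and -0.14 without it (edgeR adjusted p = 0.59).

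At 50% SH the ME034V libraries of *SvSWEET4a*, at 36.2 to 53.1 CPM, all lay below those of A.10, at 63.2 to 72.8 CPM. The share of all loci apart in this way was not counted. The log2 fold change was -0.55 (SE 0.21, edgeR adjusted p = 0.079), which misses the threshold here and passes it with DESeq2 (-0.57, DESeq2 adjusted p = 0.049) and without ME034V 16 DAA replicate 3 (-0.55, edgeR adjusted p = 0.0085). At anthesis and 8 DAA the difference was -0.25 (95% interval -0.68 to 0.18) and 0.16 (95% interval -0.27 to 0.59).

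The ratio of *SvSWEET4c* to *SvSWEET4a* counts within a library needs no scaling between libraries, and it followed the stage. At 50% SH the copies had near equal counts in ME034V, with 1.03, 1.28, 1.16 and 1.17 *SvSWEET4c* counts for each *SvSWEET4a* count, against 0.588, 0.638, 0.604 and 0.583 in A.10. At anthesis the ratio was 1.24, 2.31, 2.02 and 1.65 in ME034V and 1.43, 1.56, 1.38 and 1.40 in A.10. At 8 DAA it was 5.75, 5.98, 3.10 and 3.41 in ME034V and 5.01, 6.41, 3.92 and 3.97 in A.10, above every library of anthesis. By 16 DAA it was 8.47, 6.29, 3.25 and 6.54 in ME034V and 7.06, 7.26, 5.05 and 3.83 in A.10. The lowest of these ME034V values belongs to replicate 3, the library that stood apart.

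On the log2 scale the mean ratio in ME034V was 0.21 ± 0.13 at 50% SH, 0.81 ± 0.39 at anthesis, 2.13 ± 0.49 at 8 DAA and 2.54 ± 0.59 at 16 DAA (SD, n = 4 each). In A.10 it was -0.73 ± 0.06, 0.53 ± 0.08, 2.24 ± 0.34 and 2.49 ± 0.44 at the same stages (SD, n = 4 each). The groups did not overlap from anthesis to 8 DAA in either ecotype, from 50% SH to anthesis in A.10, and between ME034V and A.10 at 50% SH, where the difference was 0.94. An exact two-sided permutation test of 4 against 4 libraries gave p = 0.029 for each of these, the smallest it can give, and 0.071 after adjustment over the 10 comparisons, so that none passed 0.05. At 8 and 16 DAA the ratios of the ecotypes overlapped, with differences of -0.11 and 0.05 (exact permutation p = 0.66 and 0.91). Without ME034V 16 DAA replicate 3 the difference at 16 DAA was 0.33 (exact permutation p = 0.34).

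**Figure D2:**
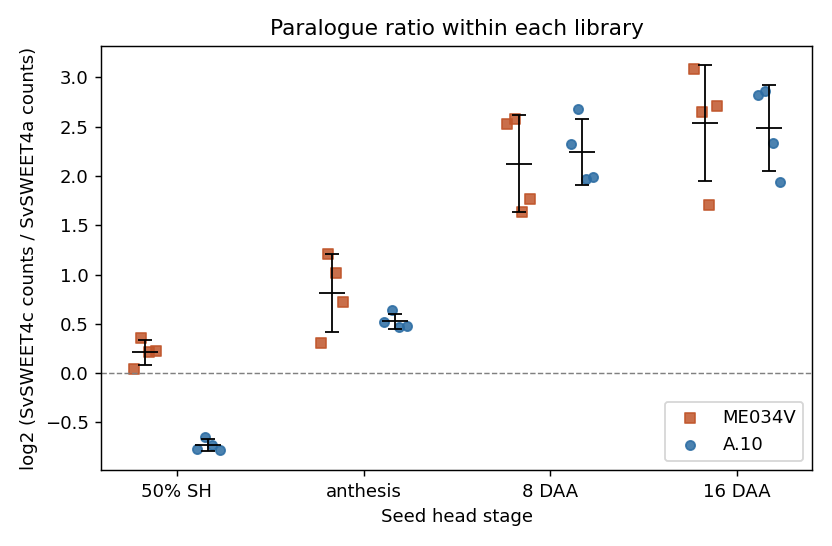
Log2 ratio of *SvSWEET4c* to *SvSWEET4a* counts in each library, by stage. Squares are ME034V, circles are A.10, and bars are the mean ± SD of 4 libraries. At 50% SH the ME034V libraries lie at 0.04 to 0.36 and those of A.10 at -0.78 to -0.65, while the ecotypes overlap from anthesis on.

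*SvSWEET5* changed most between stages and was the only one of the 3 genes that differed between the ecotypes by the test. At 50% SH it was close to the limit of detection in A.10, with 29, 30, 3 and 5 counts, and had 57, 65, 44 and 48 counts in ME034V. The A.10 libraries had 2.24, 2.66, 0.63 and 0.87 CPM. Replicates 1 and 2 of this group, the deeper libraries, differed from 3 and 4 with a chi-square per degree of freedom of 9.8 to 22.2. Within these pairs it was 3.8 and 3.4. At anthesis *SvSWEET5* had 97.8, 108, 125 and 84.1 CPM in ME034V and 42.1, 51.9, 44.3 and 54.9 CPM in A.10. The rise into anthesis was 4.25 on the log2 scale, or 19.0-fold, in ME034V (SE 0.35, edgeR adjusted p = 1.5e-07) and 4.68, or 25.7-fold, in A.10 (SE 0.62, edgeR adjusted p = 1.6e-05). The highest library of 50% SH had 6.68 CPM and the lowest of anthesis 42.1 CPM. The share of all loci with stages apart in this way was not counted.

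After anthesis the libraries of the ecotypes remained apart. At 8 DAA *SvSWEET5* had 202, 143, 122 and 151 CPM in ME034V and 50.5, 24.5, 10.4 and 5.425 CPM in A.10. At 16 DAA it had 32.8, 75.2, 129.8 and 48.3 CPM in ME034V and 2.08, 10.2, 4.33 and 8.18 CPM in A.10. The A.10 libraries of 8 DAA were widely spread. Replicate 1, with the highest *SvSWEET5* value, had the lowest starch synthesis sum, 11195 CPM, and the others had 14412, 11569 and 13013 CPM. Replicate 2, with the next highest *SvSWEET5* value, had the highest of these sums. In ME034V at 16 DAA the highest *SvSWEET5* value belongs to replicate 3.

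From anthesis to 8 DAA *SvSWEET5* changed by 0.58 on the log2 scale in ME034V (95% interval -0.03 to 1.19, edgeR adjusted p = 0.11) and by -1.06 in A.10 (SE 0.45, edgeR adjusted p = 0.0499). The call in A.10 is at the threshold. It was lost with DESeq2 (-1.09, DESeq2 adjusted p = 0.13) and in 14 of 16 fits without 1 library. Without A.10 8 DAA replicate 1 the step was -1.88 (edgeR adjusted p = 0.00036). Without ME034V 16 DAA replicate 3 the ME034V step passed (0.58, edgeR adjusted p = 0.020). The step of ME034V minus that of A.10 was 1.65 (SE 0.57, edgeR adjusted p = 0.14), which missed the threshold. It passed without A.10 8 DAA replicate 1 (2.43, edgeR adjusted p = 0.0043), the library with 50.5 CPM, in a fit that called 1469 loci for this difference in place of 537. From 8 to 16 DAA *SvSWEET5* fell by 1.11 in ME034V (SE 0.29, edgeR adjusted p = 0.030) and by 1.82 in A.10 (SE 0.51, edgeR adjusted p = 0.015). Without A.10 8 DAA replicate 1 the step in A.10 was -1.04 (edgeR adjusted p = 0.099), and without ME034V 16 DAA replicate 3 the step in ME034V was -1.57 (edgeR adjusted p = 0.00027). The call in ME034V was lost in 6 of 16 fits without 1 library, with adjusted p up to 0.11 (edgeR).

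ME034V seed heads held more *SvSWEET5* transcript than A.10 seed heads after anthesis. At 8 DAA the difference was 2.75 in log2 units (SE 0.43, edgeR adjusted p = 1.1e-05), or 6.71-fold, and at 16 DAA it was 3.45 (SE 0.47, edgeR adjusted p = 1.5e-06), or 10.97-fold. It was the 1 gene of 3 called at each of these stages. Of the 25264 loci tested 21.8% differed at 8 DAA and 11.9% were higher in ME034V, and 28.4% differed at 16 DAA and 15.8% were higher. Without ME034V 16 DAA replicate 3 the difference at 16 DAA was 2.98 (edgeR adjusted p = 6.4e-06), and without A.10 8 DAA replicate 1 that at 8 DAA was 3.53 (edgeR adjusted p = 1.8e-07). At 50% SH and anthesis edgeR called 0 of the 3 genes, where it called 15.5% and 14.3% of all loci. With no adjustment 3 and 1 of the 3 had p under 0.05 at these stages, and DESeq2 called 2 and 0. *SvSWEET5* was 1.54 higher in ME034V at 50% SH (95% interval 0.22 to 2.86, edgeR adjusted p = 0.12) and 1.10 higher at anthesis (95% interval 0.27 to 1.92, edgeR adjusted p = 0.068), values that missed the threshold. The difference at anthesis passed without ME034V 16 DAA replicate 3 (1.10, edgeR adjusted p = 0.034) and without A.10 8 DAA replicate 1 (1.10, edgeR adjusted p = 0.024).

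At all 4 stages the lowest ME034V library of *SvSWEET5* lay above the highest A.10 library. The share of all loci apart in this way was not counted, and edgeR called the difference at 8 and 16 DAA only. The pairs of values were 4.67 against 2.66 CPM at 50% SH, 84.1 against 54.9 CPM at anthesis, 122 against 50.5 CPM at 8 DAA, and 32.8 against 10.2 CPM at 16 DAA. Whether the gap between the ecotypes widened over development was not shown. Of the differences between ecotypes in a step, edgeR called 0 of 3 genes at each step, with 0.119%, 2.13% and 0.139% of all loci called from the first step to the last. Unadjusted p was under 0.05 for 0, 1 and 0 of the 3 genes, and DESeq2 also called 0 at each step. For *SvSWEET5* these differences were -0.44 into anthesis (95% interval -2.01 to 1.12), 1.65 into 8 DAA (95% interval 0.47 to 2.82) and 0.71 into 16 DAA (95% interval -0.55 to 1.96). The last was 0.24 without ME034V 16 DAA replicate 3 and -0.08 without A.10 8 DAA replicate 1.

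**Figure D3:**
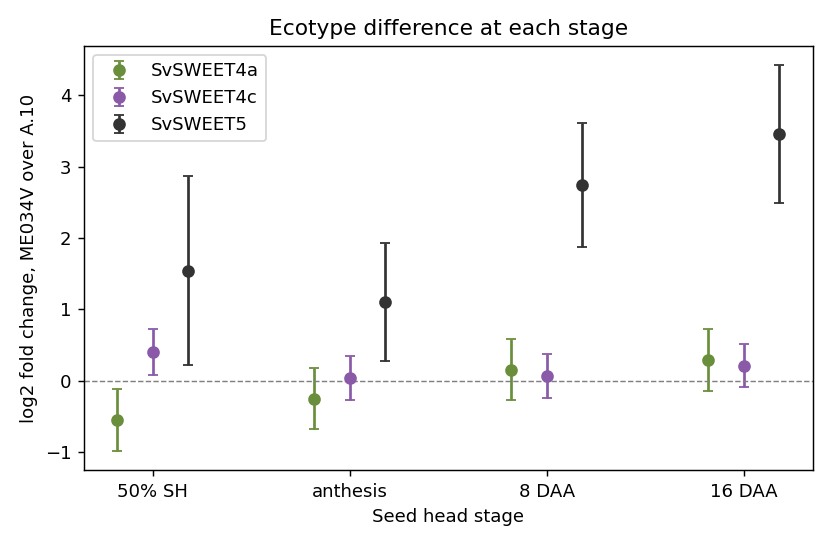
Log2 fold change of ME034V over A.10 for each gene at each stage, from the edgeR fit of all 32 libraries. Points are estimates and bars are 95% intervals. *SvSWEET5* reaches 2.75 at 8 DAA and 3.45 at 16 DAA, while the intervals of *SvSWEET4a* and *SvSWEET4c* at these stages include 0.

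The starch synthesis sums did not overlap between the ecotypes at the same stages, with 7437 to 9787 CPM in ME034V and 11195 to 14412 CPM in A.10 at 8 DAA, and of 4597 to 9309 CPM in ME034V and 10704 to 11946 CPM in A.10 at 16 DAA. Of the 22 starch loci 1 was higher and 8 were lower in ME034V at 8 DAA, where 40.9% of the list and 21.8% of all loci were called. At 16 DAA 1 was higher and 5 were lower, 27.3% of the list beside 28.4% of all loci, and without ME034V 16 DAA replicate 3 it was 0 and 6. The list had median log2 fold changes of -0.39 and -0.35 against -0.01 and 0.02 over all loci. At 50% SH and anthesis the sums of both ecotypes lay between 1304 and 1777 CPM. The part of this difference in the *SvSWEET5* result was not tested.

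The remaining listed SWEET that carries a number of clade II, *SvSWEET6* (Sevir.5G225300), also differed between the ecotypes, and at every stage. It was higher in ME034V by 1.53 at 50% SH (SE 0.28, edgeR adjusted p = 0.00012), 0.82 at anthesis (SE 0.25, edgeR adjusted p = 0.022), 0.82 at 8 DAA (SE 0.27, edgeR adjusted p = 0.030) and 1.18 at 16 DAA (SE 0.27, edgeR adjusted p = 0.0012), all in log2 units. Without ME034V 16 DAA replicate 3 the last of these was 0.79 (edgeR adjusted p = 0.015). Like *SvSWEET5* it rose into anthesis, by 1.16 in ME034V (SE 0.29, edgeR adjusted p = 0.010) and 1.86 in A.10 (SE 0.18, edgeR adjusted p = 7.8e-07). It then fell to 8 DAA in both, by 1.55 in ME034V (SE 0.30, edgeR adjusted p = 0.00043) and by 1.54 in A.10 (SE 0.17, edgeR adjusted p = 7.2e-07). Its levels were low, at most 3.62 ± 0.44 log2 FPKM (SD, n = 4, ME034V at anthesis).

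Set beside each other per length of locus, the 3 genes changed their order over development. At 50% SH *SvSWEET4a* was the highest, at 4.09 ± 0.25 log2 FPKM in ME034V and 4.59 ± 0.10 in A.10, and *SvSWEET5* the lowest, at 1.86 ± 0.22 in ME034V and 0.00 ± 0.85 in A.10 (SD, n = 4 each). At anthesis *SvSWEET5* led, at 6.06 ± 0.24 log2 FPKM in ME034V and 4.90 ± 0.18 in A.10 (SD, n = 4 each). It lay above *SvSWEET4c* within the same library by 1.45 ± 0.08 in ME034V and 0.39 ± 0.16 in A.10, in 4 of 4 libraries each (SD of the difference, n = 4). Its lead over *SvSWEET4a* at anthesis was 1.497 ± 0.327 in ME034V, in 4 of 4 libraries, and 0.15 ± 0.20 in A.10, in 3 of 4.

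At 8 DAA the order differed between the ecotypes. *SvSWEET5* was above *SvSWEET4c* by 0.86 ± 0.19 log2 FPKM in ME034V, in 4 of 4 libraries, and differed from it by -2.30 ± 1.39 in A.10, below it in 4 of 4 libraries (SD of the difference, n = 4 each). At 16 DAA *SvSWEET4c* was the highest in both, and *SvSWEET5* differed from it by -0.58 ± 0.81 log2 FPKM in ME034V, being the higher in replicate 3 alone (-0.89 without it), and by -3.86 ± 1.14 in A.10 (SD of the difference, n = 4 each). *SvSWEET5* stayed above *SvSWEET4a* at 16 DAA by 1.19 ± 0.36 log2 FPKM in ME034V, in 4 of 4 libraries, and differed from it by -2.14 ± 1.00 in A.10, below it in 4 of 4. These levels depend on the length used, which here includes introns, 1577 bp for *SvSWEET5*, 2749 bp for *SvSWEET4a* and 4661 bp for *SvSWEET4c*. In CPM, without the length, *SvSWEET5* was above *SvSWEET4c* in 0 of 4 ME034V libraries at 8 DAA and in 1 of 4 at anthesis. In A.10 at anthesis it was above *SvSWEET4c* and above *SvSWEET4a* in 0 of 4 libraries each. At 50% SH in ME034V *SvSWEET4c*, below *SvSWEET4a* per length, was above it in CPM in 4 of 4 libraries.

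Among the 17 listed SWEETs *SvSWEET5* ranked 13, 2, 1 and 2 by mean log2 FPKM over the 4 stages in ME034V, and 15, 4, 10 and 14 in A.10. *SvSWEET4c* ranked 6, 5, 2 and 1 in ME034V and 5, 8, 1 and 1 in A.10. *SvSWEET4a* ranked 3, 7, 6 and 7 in ME034V and 2, 5, 6 and 9 in A.10. *SvSWEET1a* held the first rank at 50% SH and *SvSWEET15* at anthesis in both ecotypes, and *SvSWEET13a*, of the sucrose-transporting clade III, was second to *SvSWEET4c* at 8 and 16 DAA in A.10 only. These ranks depend on the length used. By mean CPM, without the length, *SvSWEET5* ranked 13, 4, 2 and 4 in ME034V and 15, 8, 11 and 16 in A.10. *SvSWEET4c* then ranked 3, 3, 1 and 1 in ME034V and 5, 3, 1 and 1 in A.10. For *SvSWEET4a* the ranks were 4, 5, 6 and 7 in ME034V and 2, 5, 6 and 8 in A.10. *SvSWEET13a* ranked 2 at 8 DAA and 3 at 16 DAA in A.10.

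The share of the SWEET counts per kb of locus held by the 3 genes together was highest at 8 DAA in both ecotypes. In ME034V the share was 18.4% ± 1.7 at 50% SH, 30.6% ± 3.4 at anthesis, 48.7% ± 2.7 at 8 DAA and 37.2% ± 3.2 at 16 DAA (SD, n = 4 each), or 37.3% at 16 DAA without replicate 3. In A.10 it was 20.2% ± 1.5, 23.6% ± 2.0, 31.9% ± 2.3 and 26.4% ± 2.4 at the same stages (SD, n = 4 each). At 8 DAA the ME034V libraries lay between 45.8% and 52.3% and those of A.10 between 29.4% and 34.0%, and *SvSWEET5* alone held 27.5% ± 2.6 in ME034V and 5.3% ± 4.4 in A.10 (SD, n = 4 each). *SvSWEET4c* held 15.2% ± 1.8 in ME034V and 19.6% ± 1.9 in A.10 at that stage. A share falls when other SWEETs rise, so that it is no measure of level. These shares also depend on the length used, which includes introns. In mean CPM, without the length, *SvSWEET4c* was above *SvSWEET5* in ME034V at 8 DAA, at 253.3 against 154.6 CPM. In A.10 at 8 DAA it was also above it, at 241.5 against 22.7 CPM. Shares without the length were not computed.

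**Figure D4:**
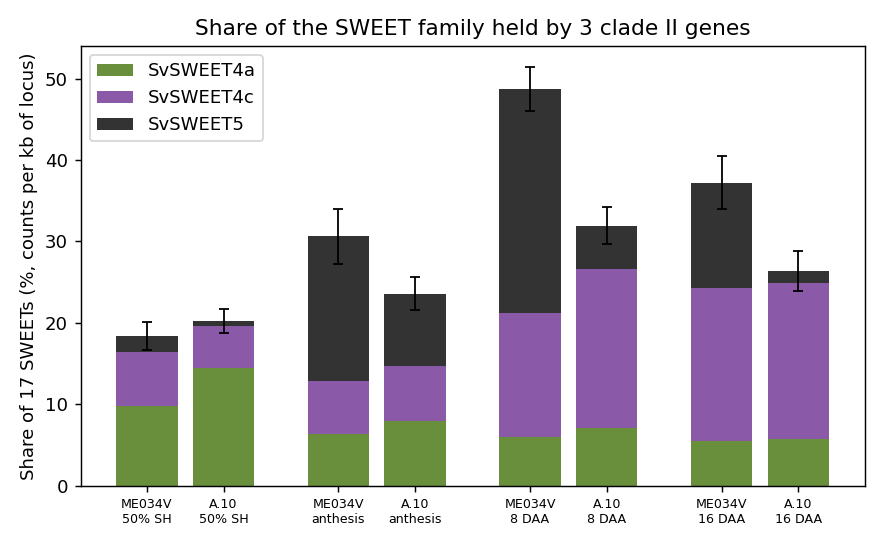
Share of the summed counts per kb of locus of the 17 listed SWEETs held by *SvSWEET4a*, *SvSWEET4c* and *SvSWEET5* (stacked means of 4 libraries), by ecotype and stage. Black bars are the SD of the summed share. At 8 DAA the 3 genes hold 48.7% in ME034V and 31.9% in A.10, with 27.5% and 5.3% from *SvSWEET5*. The shares depend on the length of locus used, which includes introns.

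Of the whole family, 7 of 16 SWEETs tested rose and 0 fell into anthesis in ME034V, where 18.5% of all loci changed, and 8 of 17 rose and 0 fell in A.10, where 34.5% did. Into 8 DAA 5 rose and 3 fell of 16 in ME034V (46.6% of all loci changed), and 6 rose and 7 fell of 17 in A.10 (62.6%). Into 16 DAA 0 rose and 1 fell of 16 in ME034V (6.71%), which was *SvSWEET5*, and 3 rose and 2 fell of 17 in A.10 (25.7%). Without ME034V 16 DAA replicate 3 that step in ME034V had 1 SWEET that rose, *SvSWEET3a*, and 1 that fell. Of the 17 SWEETs 1, 2, 3 and 4 were higher and 0, 0, 1 and 3 lower in ME034V over the 4 stages, where 15.5%, 14.3%, 21.8% and 28.4% of all loci differed. At 16 DAA 2 were higher and 4 lower without ME034V 16 DAA replicate 3. At 8 DAA the difference in *SvSWEET5* was larger than that of any other SWEET called, the next being -0.84 in *SvSWEET14a*. At 16 DAA the order depends on 1 library, since the difference in *SvSWEET12* was -2.51 with ME034V replicate 3 and -3.13 without it, against 3.45 and 2.98 in *SvSWEET5*.

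Cell wall invertases, which split sucrose outside the cell, had 5 of 9 loci that rose and 0 that fell into anthesis in each ecotype, where 18.5% of all loci changed in ME034V and 34.5% in A.10. Their median log2 fold changes were 1.005 in ME034V and 1.23 in A.10, against -0.03 and -0.01 over all loci. Into 8 DAA 4 of 9 rose and 2 fell in ME034V (46.6% of all loci changed), and 5 rose and 3 fell in A.10 (62.6%). The hexose transporters (HXTs) take hexoses up with protons. Into anthesis 18.8% of 16 HXTs were called in ME034V, beside 18.5% of all loci, and 20.0% of 15 in A.10, beside 34.5%. Into 8 DAA 5 HXTs rose and 6 fell of 16 in ME034V (46.6% of all loci changed), and 4 rose and 7 fell of 15 in A.10 (62.6%). Between the ecotypes 3 of 16 HXTs were higher and 2 lower in ME034V at 8 DAA (21.8% of all loci differed), and 4 were higher and 3 lower at 16 DAA (28.4%).

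Over the 32 libraries the log2 CPM of the 3 genes were related to different degrees, with Pearson's r of 0.55 between *SvSWEET4c* and *SvSWEET5*, 0.16 between *SvSWEET4a* and *SvSWEET5*, and -0.27 between *SvSWEET4a* and *SvSWEET4c*. These describe libraries that share their stage and ecotype in groups of 4 and are not independent. The loci most like *SvSWEET5* over the 32 libraries were Sevir.7G087900 on chromosome 7 from 17600129 to 17601484 (r = 0.981), Sevir.1G061200 (r = 0.978) and Sevir.1G095000 (r = 0.978). Each of these was likewise highest in ME034V at 8 DAA, with a mean of 72.8, 84.2 and 25.0 CPM, and lowest in A.10 at 50% SH, with 0.757, 2.98 and 0.236 CPM. They were picked by r over the same libraries, so that sharing these groups is no separate result.

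The loci most like *SvSWEET4c* were Sevir.9G101900 on chromosome 9 from 6208534 to 6209693 (r = 0.975), Sevir.5G151301 (r = 0.975) and Sevir.5G394400 (r = 0.974), with their highest means in ME034V at 8 or 16 DAA. For *SvSWEET4a* the closest loci were less like it, Sevir.4G260300 (r = 0.847), Sevir.7G191000 (r = 0.805) and Sevir.6G087800 (r = 0.804). Sevir.7G191000, on chromosome 7 from 24988229 to 24993497, is listed by the study as a vacuolar invertase, an enzyme that splits sucrose inside the vacuole. Its mean was highest in A.10 at anthesis, at 46.0 CPM, and lowest in A.10 at 16 DAA, at 12.45 CPM, the groups in which *SvSWEET4a* itself was highest and lowest. Sevir.4G260300 had the same highest and lowest groups, while Sevir.6G087800 was highest in A.10 at 50% SH. All were picked by r over the same libraries, so that this likeness is no separate result.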

How the data were processed

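RNA of whole seed heads had been made into unstranded poly(A) libraries. The authors removed adapters with Trim Galore, aligned with Subjunc of Subread 1.6.2 and kept only reads with a single place. The deposited counts are read pairs per locus of the *S. viridis* v2.1 annotation from featureCounts (1.5.0-p1 per the file headers), with 1 interval per locus. The deposited log2 FPKM were computed by the authors in edgeR, separately for each ecotype, from TMM-scaled counts and the start-to-end length of a locus. The lane of each library is not given in the sources used here.

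Counts were tested with edgeR 4.0.16 in R 4.3.3 (quasi-likelihood, TMM), where a locus needed a CPM over 1 in 3 libraries or more. Stage steps were fitted with the 16 libraries of an ecotype, and ecotype differences with all 32. SE was taken as |log2 fold change| over the root of F, and 95% intervals use it. The pair ratio adds 0.5 to each count, and log2 CPM for correlations used a prior count of 2. Replicates are separate pools of plants, and no pair of them held equal counts. The fits were tested on simulated data. Alternatives were DESeq2 1.42.0, edgeR with DESeq2 normalization, no filter, a replicate block, limma 3.58.1 on log2 FPKM, and each library left out. List counts and shares without ME034V 16 DAA replicate 3 were added after seeing the data.

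Genes named are the 3 genes, *SvSWEET6*, *SvSWEET1a*, *SvSWEET13a* and *SvSWEET15*, the loci between *SvSWEET4c* and *SvSWEET4a*, and the 3 most correlated loci per gene. *SvSWEET3a*, *SvSWEET12* and *SvSWEET14a* were added after their values were seen. The genes and lists were chosen with earlier results of these data known, and the lists follow the study, which used these samples. Sequences were not analysed here.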

Additional observations from a re-analysis of the deposited data

Results flagged for a closer look

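Of 40 groups of 4 libraries looked at (the level of each gene, the pair ratio and the starch synthesis sum), 2 held a library far from the other 3 by Dixon's test at the 95% level. Chance flags about 1 in 20 groups. For *SvSWEET4c* at 50% SH in ME034V the gap was 0.843 of the range, since replicate 1 had 3.03 log2 FPKM and the others 3.65, 3.76 and 3.72. For the starch synthesis sum at 16 DAA in ME034V it was 0.865, since replicate 3 had 4597 CPM and the others 9309, 8675 and 9073 CPM.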

How the results depend on the processing

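All 13 comparisons of the 3 genes kept their direction and their side of the threshold with DESeq2 normalization in edgeR and with no filter. With DESeq2 the *SvSWEET5* fall from anthesis to 8 DAA in A.10 was lost (-1.09, DESeq2 adjusted p = 0.13), and the differences of ME034V from A.10 at 50% SH passed for *SvSWEET4a* (-0.57, DESeq2 adjusted p = 0.049) and *SvSWEET5* (1.68, DESeq2 adjusted p = 0.014). With limma on log2 FPKM the *SvSWEET5* step from 8 to 16 DAA in A.10 was lost (-1.58, limma adjusted p = 0.066). The cause was not tested. The pair ratio from log2 FPKM changed no direction or call in its 10 comparisons. Levels over summed exon length were not run, since the count files give 1 interval per locus.

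Deviations of replicates with the same number had a mean r of 0.011 within ME034V and 0.0138 within A.10, with 3 of 24 pairs over 0.1 in each. Between the ecotypes the mean r was 0.0442 (13 of 64 pairs over 0.1, highest 0.44), against -0.0151 for different numbers (20 of 192 over 0.1). Most pairs stayed under 0.1, with the same number and with different numbers alike, so that this does not settle whether the numbers pair samples. The numbers were not taken to pair the samples. A block shared by both ecotypes was not fitted. With the replicate block, fitted within each ecotype, 1 call changed, that of *SvSWEET4a* between the ecotypes at 50% SH (-0.57, edgeR adjusted p = 0.037).

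Leaving out each library in turn changed a direction or a call in 20 of the 39 tests, and in 2 of the 10 ratio comparisons. For *SvSWEET4a* the step from 8 to 16 DAA ranged from -0.57 to 0.023 in ME034V and from -0.38 to -0.19 in A.10, where it passed without A.10 8 DAA replicate 2 (edgeR adjusted p = 0.035). The difference between these steps ranged from -0.29 to 0.30. Its step into anthesis in ME034V ranged from 0.36 to 0.56, and its difference between the ecotypes from -0.62 to -0.45 at 50% SH and from -0.14 to 0.46 at 16 DAA. For *SvSWEET4c* the step from 8 to 16 DAA ranged from -0.0076 to 0.24 in ME034V and from -0.12 to 0.090 in A.10, and the difference between the ecotypes from 0.33 to 0.55 at 50% SH, -0.080 to 0.13 at anthesis and -0.037 to 0.21 at 8 DAA. Its step differences ranged from -0.082 to 0.18 into 8 DAA and from -0.0058 to 0.25 into 16 DAA. The pair ratio between the ecotypes ranged from -0.27 to 0.050 at 8 DAA and from -0.14 to 0.33 at 16 DAA.

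For *SvSWEET5* the step from anthesis to 8 DAA ranged from 0.42 to 0.68 in ME034V and from -1.88 to -0.73 in A.10, where the call was kept without A.10 8 DAA replicate 1 and without A.10 16 DAA replicate 1. The step to 16 DAA ranged from -1.57 to -0.87 in ME034V, where the call was lost without each of replicates 1, 2 and 4 of 8 DAA and of 16 DAA, and from -2.14 to -1.04 in A.10. The difference between the ecotypes at anthesis ranged from 0.998 to 1.19, and the step differences from 1.32 to 2.43 into 8 DAA and from -0.079 to 1.04 into 16 DAA. The number of loci called for the ecotype difference in a step, 30, 537 and 35, was 86 and 161 with DESeq2 for the first and last step, and with 1 library left out ranged from 8 to 44, 301 to 1469 and 15 to 259. The 1469 came without A.10 8 DAA replicate 1 and the 259 without ME034V 16 DAA replicate 3. That for the step from 8 to 16 DAA in ME034V, 1619, ranged from 828 to 1831.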
